A study of Homo sapiens with 3 samples.

Results

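The windows described here are the promoter windows in which neither of 2 chromatin immunoprecipitation libraries, one for PAF1 and one for PHF5A, had any deposited signal. They were chosen by that reading, a listed 0 with PAF1 and a listed 0 with PHF5A on chromosomes 1 to 22. The rule gave 954 of 56978 autosomal windows, 1.67%, out of 60123 windows in the table. They are called silent windows in what follows, a name for the listed 0 alone, and the other 56024 autosomal windows are called other windows. The signal of the silent windows is 0 by choice, so no test was made of it. The results are counts and positions, set beside the same counts in other windows.

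The study compared 2 antibodies in SW1990 cells, an established line from a human pancreatic ductal adenocarcinoma, in a population of them that the labels call SP. The groups were an immunoprecipitation of PAF1, a library whose title reads PD2, an immunoprecipitation of PHF5A, and an input library that was not analysed here. Cells were cross-linked with formaldehyde at 0.4% together with EGS, a longer linker that holds proteins to proteins, at 1.5 mM, and the study has no treatment or genotype contrast. Each antibody had 1 library, so no value below has a replicate check.

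PAF1 is a subunit of the PAF1 complex, which travels with RNA polymerase II, and PHF5A is a small subunit of the SF3b part of the U2 small nuclear ribonucleoprotein, which recognises the branch point of introns. The human genome holds long duplicated segments, many of them next to centromeres and chromosome ends, and tandem arrays of genes for ribosomal RNA, small nuclear RNA, histones and several primate-specific families. A short read from one of several identical copies matches all of them equally well. The sources used here do not say how such reads were kept, and their part in the listed zeros was not tested.

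The base sequence of promoters shows both ends of what these windows hold. RefSeq promoters of the GRCh38.p14 build, 300 bases from 250 before to 50 after a gene's start, were matched to 161 of the 954 silent windows, 71 by symbol and 90 by position. The first pair is shown because it is a splicing gene with a silent window at each of its places. U2AF1, the small subunit of the U2 auxiliary factor that reads the 3′ splice site, lies on 21q (chr21:43107521-43107820, minus strand), and RefSeq names its copy on 21p LOC102724594 (chr21:6499199-6499498, minus strand). They differ at 1 of 300 bases, which is in capitals.

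U2AF1 on 21q: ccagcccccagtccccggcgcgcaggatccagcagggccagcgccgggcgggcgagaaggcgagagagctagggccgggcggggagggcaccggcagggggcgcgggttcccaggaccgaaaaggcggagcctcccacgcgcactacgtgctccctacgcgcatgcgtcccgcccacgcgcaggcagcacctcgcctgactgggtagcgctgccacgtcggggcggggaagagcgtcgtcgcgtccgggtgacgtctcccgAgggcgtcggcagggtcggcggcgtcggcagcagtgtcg

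U2AF1 copy on 21p: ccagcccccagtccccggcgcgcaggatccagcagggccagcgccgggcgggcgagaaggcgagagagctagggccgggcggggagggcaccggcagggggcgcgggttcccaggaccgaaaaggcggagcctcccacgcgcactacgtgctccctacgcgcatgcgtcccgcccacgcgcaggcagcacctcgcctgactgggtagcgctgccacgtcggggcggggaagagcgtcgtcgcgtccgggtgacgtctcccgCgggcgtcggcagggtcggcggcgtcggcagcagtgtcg

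The next 3 promoters are shown because all their copies are the same letter for letter and all are silent. HIST2H4A (chr1:149832407-149832706, plus strand) and HIST2H4B (chr1:149861110-149861409, minus strand) encode histone H4. AMY1A (chr1:103655510-103655809, plus strand), AMY1B (chr1:103696161-103696460, minus strand) and AMY1C (chr1:103749648-103749947, plus strand) encode salivary amylase. SERF1B (chr5:70025001-70025300, plus strand) and SERF1A (chr5:70900419-70900718, plus strand) lie in the duplicated region of the survival motor neuron genes.

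HIST2H4A and HIST2H4B: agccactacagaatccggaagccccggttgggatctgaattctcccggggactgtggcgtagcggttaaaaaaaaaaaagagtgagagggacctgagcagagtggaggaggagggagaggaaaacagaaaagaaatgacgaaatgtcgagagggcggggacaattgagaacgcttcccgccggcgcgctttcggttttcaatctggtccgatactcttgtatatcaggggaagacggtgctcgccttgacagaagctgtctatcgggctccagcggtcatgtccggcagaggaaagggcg

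AMY1A, AMY1B and AMY1C: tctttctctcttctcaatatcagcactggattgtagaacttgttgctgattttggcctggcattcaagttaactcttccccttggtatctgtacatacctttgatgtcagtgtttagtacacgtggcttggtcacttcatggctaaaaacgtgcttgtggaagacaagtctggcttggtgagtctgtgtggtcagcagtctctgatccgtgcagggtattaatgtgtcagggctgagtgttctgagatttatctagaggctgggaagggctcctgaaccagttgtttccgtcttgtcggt

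SERF1A and SERF1B: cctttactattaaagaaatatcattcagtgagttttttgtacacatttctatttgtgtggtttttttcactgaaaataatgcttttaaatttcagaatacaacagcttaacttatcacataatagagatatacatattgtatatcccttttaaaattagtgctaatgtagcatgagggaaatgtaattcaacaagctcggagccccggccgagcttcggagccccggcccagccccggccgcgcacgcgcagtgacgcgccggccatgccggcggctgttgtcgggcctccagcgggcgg

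The last 3 are shown because they share no 25-base stretch with any other promoter of the RefSeq table and are silent all the same. CDKN2B (chr9:22009256-22009555, minus strand) encodes the cell cycle inhibitor p15, H19 (chr11:2001217-2001516, minus strand) is an imprinted non-coding RNA, and CACNA2D3 (chr3:54122302-54122601, plus strand) encodes a calcium channel subunit. Capitals mark CG pairs, of which CDKN2B holds 25, H19 6 and CACNA2D3 37.

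CDKN2B: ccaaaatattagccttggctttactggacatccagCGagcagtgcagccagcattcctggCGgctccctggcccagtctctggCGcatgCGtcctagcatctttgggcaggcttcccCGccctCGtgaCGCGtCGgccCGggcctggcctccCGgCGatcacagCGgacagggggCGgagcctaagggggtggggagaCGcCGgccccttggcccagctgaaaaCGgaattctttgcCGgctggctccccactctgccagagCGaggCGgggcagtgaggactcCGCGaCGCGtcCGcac

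H19: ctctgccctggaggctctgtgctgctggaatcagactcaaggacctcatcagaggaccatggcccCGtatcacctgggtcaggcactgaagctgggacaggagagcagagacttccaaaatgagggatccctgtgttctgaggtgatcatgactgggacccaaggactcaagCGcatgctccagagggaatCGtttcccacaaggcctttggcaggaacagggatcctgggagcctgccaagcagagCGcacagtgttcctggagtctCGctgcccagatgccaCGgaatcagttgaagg

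CACNA2D3: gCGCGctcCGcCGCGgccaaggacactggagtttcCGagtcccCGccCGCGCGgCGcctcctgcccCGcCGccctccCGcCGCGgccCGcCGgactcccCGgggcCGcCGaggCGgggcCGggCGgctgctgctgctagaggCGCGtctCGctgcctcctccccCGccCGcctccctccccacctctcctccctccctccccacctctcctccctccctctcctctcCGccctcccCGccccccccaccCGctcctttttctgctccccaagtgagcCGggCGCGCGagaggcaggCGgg

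The limit of the choice is a matter of single fragments. The deposited signal is a mean over the 17 or 18 bins of 150 bp that a window touches, and 352 silent windows had 17 bins and 602 had 18. Among low windows the commonest bin sum above 0 was 3, found in 279 windows with PAF1 and 206 with PHF5A, and 1 fragment was taken to add 3 bin counts, 0.176 where a window has 17 bins and 0.167 where it has 18. A listed 0 was taken to allow an expected count of up to 3 such fragments, a signal of 0.529 or 0.5, from counting error alone. The median signal of all autosomal windows was 4.22 with PAF1 and 4.37 with PHF5A, and the bin sums came to 4666548 and 4742164.

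A 0 with PAF1 was listed for 1223 autosomal windows, 2.15%, and a 0 with PHF5A for 1246, 2.19%. A 0 in 1 library alone was listed for 561 autosomal windows, 0.985%. Of these, 269 were at 0 with PAF1 and had a median of 0.27 and a maximum of 2.42 with PHF5A, and 201 of them lay at or below 0.5. The other 292 were at 0 with PHF5A and had a median of 0.17 and a maximum of 2.33 with PAF1, and 243 of them lay at or below 0.5. Just outside the rule were SLC35E2, NBPF4 and ADRA2C, at 0 with PAF1 and 0.05 with PHF5A, and the pseudogenes WBP1LP3 and FAM90A10P, at 0.05 with PAF1 and 0 with PHF5A. Farther out lay C2CD4C (0 with PAF1, 2.42 with PHF5A), PCMT1 (0 and 2.30), CBR3 (1.88 and 0) and PBX3 (1.88 and 0). Most windows at 0 in 1 library were thus within the floor of a listed 0 in the other.

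The silent windows were unevenly spread over chromosomes. Chromosome 21 held 132 of its 870 windows, 15.2%, and chromosome 9 held 116, 4.99%. Chromosome 15 held 94, 4.24%, and chromosome 16 held 104, 4.02%. The longest chromosome, 1, held 97, 1.81%, which is near the share of all windows. Chromosome 18 held none of its 1209 windows, chromosome 12 held 3, and chromosomes 3 and 20 held 5 each.

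**Figure D1:**
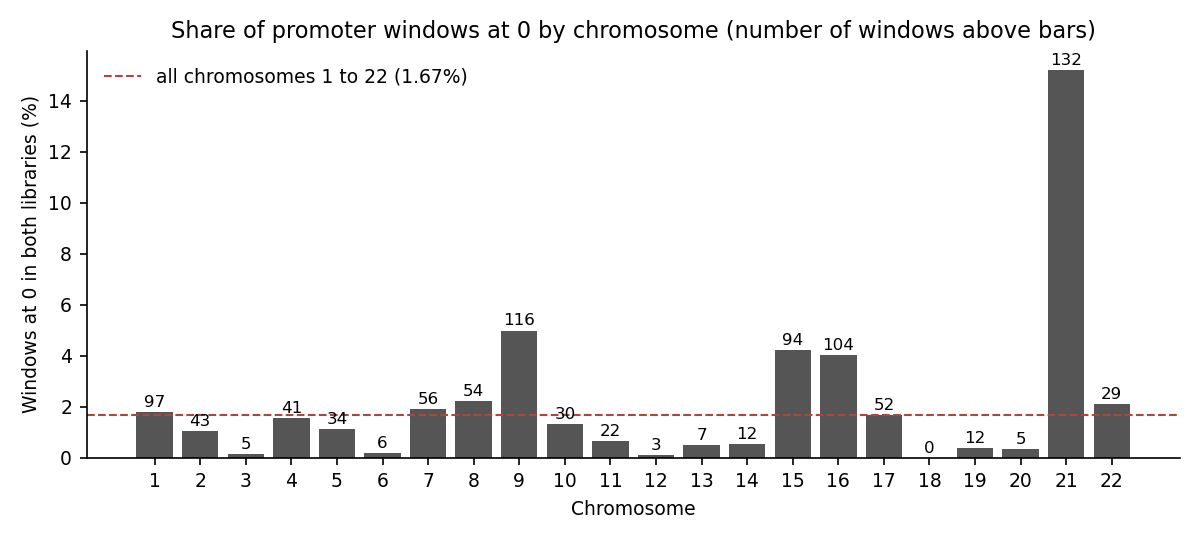
Share of promoter windows at 0 in both libraries on each chromosome (vertical axis, percent), with the number of such windows above each bar and the share over chromosomes 1 to 22 as a dashed line. Chromosome 21 stands highest at 15.2%, chromosomes 9, 15 and 16 lie between 4.02% and 4.99%, and chromosome 18 has none.

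Each silent window was placed in 1 of 5 exclusive classes, so that all 954 are accounted for. Within 5 Mb of the longest stretch of their chromosome that holds no window lay 380, 39.8%. This stretch stands in for the centromere, or for the beginning of the chromosome on 13, 14, 15, 21 and 22, whose short arms the build hardly covers. A further 113, 11.8%, lay within 1 Mb of the outermost window of an arm. Elsewhere, 266, 27.9%, belonged to a run of 3 or more neighbouring silent windows. Of the single windows and pairs that remained, 74, 7.76%, belonged to a listed gene family or had a promoter shared with another gene, and for 121, 12.7%, neither was found, although a promoter was matched for only 20 of the 121.

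Windows near these stretches were more often silent. Being within 5 Mb of a window-free stretch was true of 380 silent windows, 39.8%, and of 4905 other windows, 8.76%. Being within 1 Mb of an outer end was true of 113 silent windows, 11.8%, and of 1737 other windows, 3.1%. The share of silent windows was 7.14% in the first Mb beside the window-free stretch, 8.77% in the next, 6.69% from 2 to 5 Mb, 2.19% from 5 to 10 Mb, and 0.872% beyond 20 Mb. At chromosome ends the decline was steeper, with 95 of 691 windows, 13.7%, silent in the outermost 0.3 Mb, 1.55% from 0.3 to 1 Mb and 0.935% from 1 to 3 Mb.

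**Figure D2:**
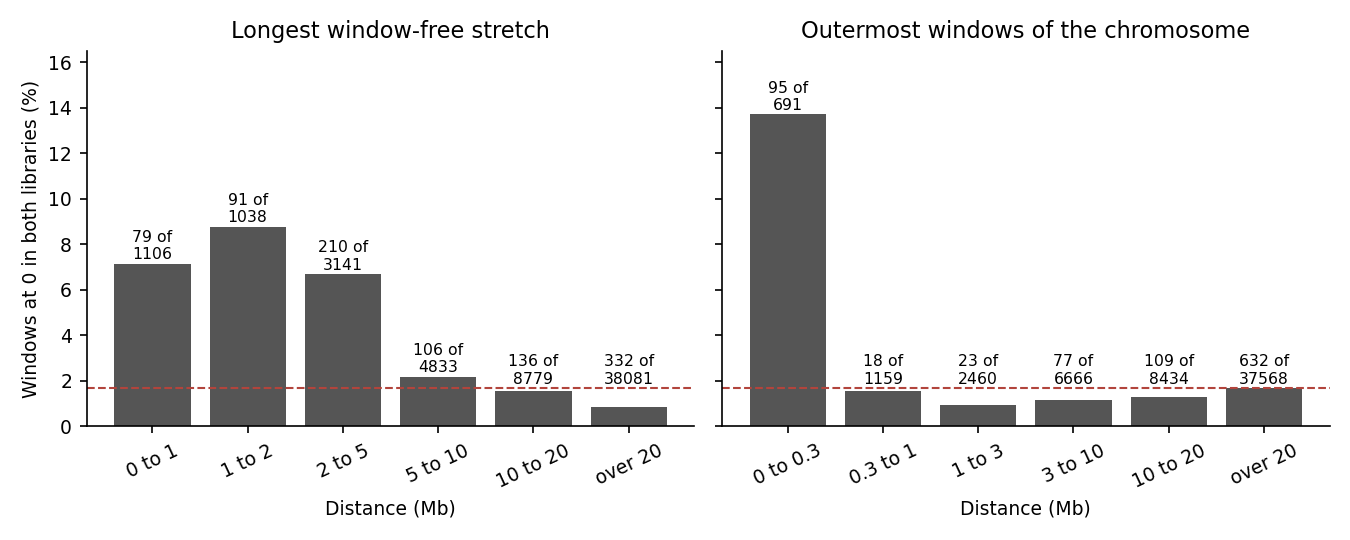
Share of windows at 0 in both libraries (vertical axis, percent) by distance in Mb from the longest window-free stretch of the chromosome (left) and from the outermost windows of its arms (right), with counts above the bars and the share of all windows as a dashed line. The share stays above 6% out to 5 Mb on the left and drops after 0.3 Mb on the right.

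Few ends made up that outer band. Silent windows were found within 0.3 Mb at 14 of 39 ends with windows, and 25 ends had none. The end of 10q held 28 of 41 windows and that of 4q held 14 of 33, which are the places of the D4Z4 arrays with DUX4, a transcription factor gene of the early embryo. The first windows of chromosome 1 were silent in 10 of 24 cases, those of 19p in 9 of 25, and those of 8p in 6 of 14. At these ends and at those of 5q and 15q lay genes repeated at many chromosome ends, among them the olfactory receptors OR4F29, OR4F3 and OR4F21 and the WASH pseudogenes WASH7P and WASH3P. In the list of such gene names, 15 of 60 windows, 25%, were silent, and all 15 lay near an end. The list also takes in windows away from ends, such as MIR1302-4 on chromosome 2.

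Silent windows lay beside each other. Runs of 3 or more numbered 115 and held 618 windows, 64.8% of all silent ones, 70 pairs held 140, and 196 windows were single. Neighbouring windows can overlap, so the same bases can count toward several windows of a run. With overlapping silent windows merged, 774 silent windows were left, against 954. With overlapping windows merged before runs were counted, 439 lay in runs of 3 or more, against 618. The level around a silent window, taken as the median of the 50 nearest windows on each side that start at least 10 kb away, had a median of 1.83 with PAF1 and 1.89 with PHF5A, against 4.22 and 4.37 around other windows. Around silent windows its lower and upper quartiles were 0.208 and 2.97 with PAF1 and 0.22 and 3.01 with PHF5A. Silent windows thus stood both in regions with almost no signal and in regions with fair signal.

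The longest run had 30 windows on the short arm of chromosome 21 (chr21:6902884-8213072), from the clone-named CH507-210P18.5 to RNA5-8S5, a 5.8S ribosomal RNA gene, with SMIM11 as its coding gene. The second had 26 windows over 96.6 kb at the end of 10q (chr10:133665151-133761718), from XX-2136C77.3 to AL732375.6, in which DUX4L copies and clone-named genes alternate. A run of 18 windows on 21p (chr21:5502042-6318934), from CH507-24F1.1 to CH507-145C22.1, came next. A run of 17 windows beside the centromere of chromosome 16 (chr16:33138850-33572935) began with ABHD17AP9. It holds TP53TG3B and 3 windows named TP53TG3C, and all 6 TP53TG3 windows of the genome were silent. A run of 16 windows on 8p (chr8:7551562-7761830), from FAM90A6P to FAM90A9P, was made mostly of FAM90A copies.

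On the short arm of chromosome 16, runs of 12 windows (chr16:16291742-16353653) and of 11 windows (chr16:18378831-18490365) held the same kinds of genes in different order. Both contain a window of NPIPA1, of the nuclear pore complex interacting protein family, a PKD1 pseudogene (PKD1P1 in one and PKD1P5 in the other), and the microRNA genes MIR3179, MIR3180, MIR3670 and MIR6770. The first went from RP11-517A5.5 to RP11-958N24.4 and includes NOMO3, and the second went from NPIPA1 to a microRNA window named hsa-mir-3670-1. A run of 11 windows on chromosome 17 (chr17:19158611-19216115) began with AC007952.6, held SNORD3A and SNORD3C, genes of the U3 small nucleolar RNA, and ended with EPN2, an endocytic adaptor, next to EPN2-AS1 at 7.82 with PAF1 and 5.74 with PHF5A. Another run of 11 windows, on the long arm of chromosome 21 (chr21:13607858-13770432), went from POTED to AL050303.7.

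MicroRNA windows, counting both naming styles of the table, were silent in 42 of 1707 cases, 2.46%, beside 1.67% of all autosomal windows. Of the 42, 17 lay on chromosome 16, 9 on chromosome 21 and 7 on chromosome 15. All 17 on chromosome 16 were windows of MIR3179, MIR3180, MIR3670, MIR6511A2 or MIR6770-2, and mature sequences of these genes follow, with the seed (bases 2 to 8) in capitals. RefSeq places miR-3179, miR-3670 and miR-6511a-5p at 4 sites each and miR-6770-5p at 3, with 1 mature sequence each. The 3p arm of miR-3180 and the shorter miR-3180 share the seed GGGGCGG. The last is miR-675-5p, from a single site inside H19, shown for contrast.

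hsa-miR-3179: aGAAGGGGugaaauuuaaacgu

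hsa-miR-3180-3p: uGGGGCGGagcuuccggaggcc

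hsa-miR-3180: uGGGGCGGagcuuccggag

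hsa-miR-3670: aGAGCUCAcagcuguccuucucua

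hsa-miR-6511a-5p: cAGGCAGAaguggggcugacagg

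hsa-miR-6770-5p: uGAGAAGGcacagcuugcacguga

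hsa-miR-675-5p: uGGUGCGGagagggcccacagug

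All 4 windows named MIR6511A2 were silent, as were 2 of 3 named MIR6770-2 and both places of MIR1233 on chromosome 15. The microRNAs MIR3648-1 and MIR3687-1, which lie in ribosomal DNA units, were silent at both of their places on 21p.

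Gene families differed widely in the share of their windows that were silent. The listed family patterns covered 321 silent windows, 33.6%, and 10167 other windows, 18.1%. Families of duplicated genes had the highest shares, among them TP53TG3 with 6 of 6 windows, 100%, and the 21p and 21q copies with 10 of 14, 71.4%. Of USP17L genes, deubiquitinating enzymes in arrays on chromosomes 4 and 8, 23 of 30 windows, 76.7%, were silent, and the highest of the rest had 1.38 with PAF1. Of FAM90A windows, 16 of 28, 57.1%, were silent, and of the DUX4 and D4Z4 list, 17 of 37, 45.9%, all at chromosome ends. Of NPIP windows, 9 of 21, 42.9%, were silent, and NPIPB7 was highest at 2.77 with PAF1 and 2.96 with PHF5A.

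Other duplicated families were silent in part. The SPATA31 and CBWD genes of chromosome 9, many of them beside its centromere, were silent in 13 of 46 windows, 28.3%, with medians of 0.27 and 0.27 among the rest. TBC1D3 genes on chromosome 17, which encode hominoid TBC-domain proteins, were silent in 5 of 19, 26.3%, while TBC1D3J had 4 with PAF1 and 3.18 with PHF5A and the pseudogene TBC1D3P5 had 9 and 9.76. Golgin genes of chromosome 15 were silent in 7 of 35, 20%, and genes of the Williams-Beuren duplicons in 6 of 36, 16.7%. NCF1, which encodes a subunit of the phagocyte oxidase, was silent, as was its copy NCF1C, and NCF1B had 0 with PAF1 and 0.29 with PHF5A.

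Some large families spread over the genome lay near the 1.67% of all windows and others lay below it. Olfactory receptors were silent in 13 of 870 windows, 1.49%, U6 RNA copies in 19 of 1291, 1.47%, windows named Y_RNA, RNY or RN7S in 21 of 1625, 1.29%, and small nucleolar RNAs in 8 of 863, 0.927%. Windows named Metazoa_SRP, copies of the 7SL RNA of the signal recognition particle that the list did not hold, were silent more often, in 17 of 244, 6.97%. Ribosomal protein genes and their processed copies were silent in 2 of 908, 0.22%, and C2H2 zinc finger genes in 3 of 641, 0.468%. Several families had no silent window at all, among them 224 T cell receptor segments, 170 copies of mitochondrial genes, 128 keratin-associated and related genes and 53 HLA and complement C4 windows.

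**Figure D3:**
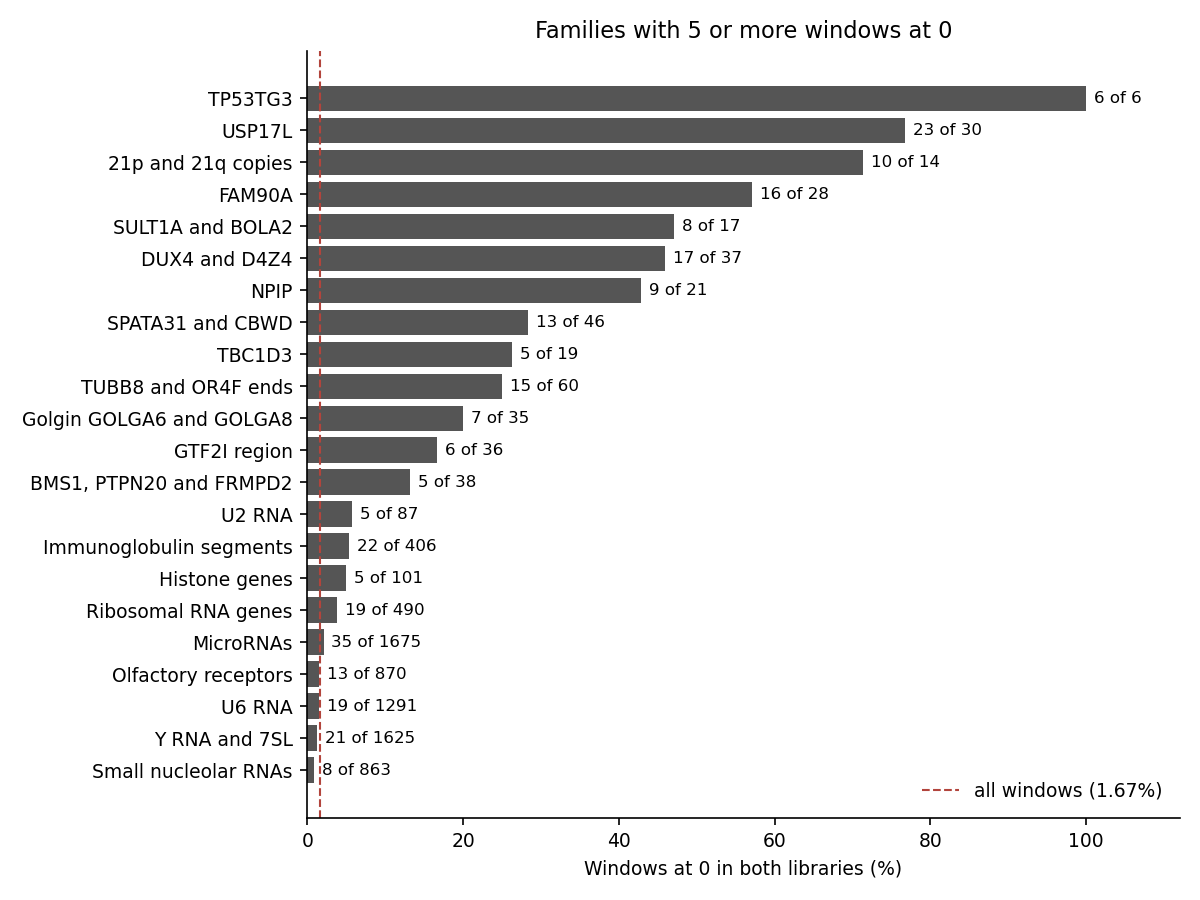
Share of windows at 0 in both libraries (horizontal axis, percent) for the listed families with 5 or more such windows, with counts beside the bars and the share of all windows as a dashed line. TP53TG3, USP17L and the chromosome 21 copies stand at 71.4% or more, and olfactory receptors, U6 RNA, the Y RNA and 7SL list and small nucleolar RNAs lie at or below 1.49%.

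RNA genes in tandem arrays were often silent. Of the 17 genes RNA5S1 to RNA5S17, the 5S ribosomal RNA array on chromosome 1, 13 were silent. RNA5S5 had 0.61 with PAF1 and 0.83 with PHF5A, RNA5S6 had 0.83 and 0.67, and RNA5S12 had 0.33 and 0.33. Only RNA5S17, the last of the array, reached 4.11 and 3.68. The 4 windows named RNA5-8S5 on 21p were all silent. Over the 490 windows whose symbols begin with RNA5S, RNA5-8S or the like, 19 were silent, 3.88%, and the rest had medians of 4.83 and 4.80. The pseudogenes RNA5SP59 and RNA5SP162 on chromosome 1 were among the 19. Outside that list, 1 of 24 windows named 5S_rRNA and 1 of 5 named 5_8S_rRNA were silent.

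U2 small nuclear RNA genes, whose product is the core of the particle that contains PHF5A, were silent in part of 1 array. Of 87 windows of U2 genes and copies, 5 were silent, 5.75%, and all 5 lay in the array on chromosome 17. Among the 21 windows named RNU2-1, U2 or RNU2-2P, the rest of that array reached at most 0.94 with PAF1 and 0.5 with PHF5A. A U2 window farther along chromosome 17 (chr17:43386917-43389417), apart from the array, had 3.94 and 3.61. RNU2-2P, a separate U2 gene on chromosome 11, had 6.05 and 4.61. Of U1 RNA windows, 4 of 133 were silent, 3.01%, among them RNU1-3 and RNU1-4.

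Histone genes were silent in part. The silent ones were HIST2H4A, HIST2H4B, HIST2H3A and HIST2H3C, which form an inverted duplication on chromosome 1, and H2BFS on chromosome 21, together 5 of 101 windows, 4.95%. Of 17 HIST2 windows, 4 were silent, and the rest had medians of 1.16 with PAF1 and 1.34 with PHF5A. Inside the duplication the 2 HIST2H2AA4 windows had 2.41 and 5.94 with PAF1 and 2.48 and 6.03 with PHF5A. HIST2H2BD and HIST2H2BC, also inside it, had 0.41 and 1.66 with PAF1 and 0.11 and 1.34 with PHF5A. HIST2H2AB, outside the duplication on the same chromosome, had 10.3 with PAF1 and 7.15 with PHF5A.

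Immunoglobulin segments were silent in 22 of 406 windows, 5.42%, and 20 of the 22 lay near a window-free stretch. Of the 22, 18 were orphan segments, copies outside the loci that B cells rearrange, such as IGKV1OR2-9 on chromosome 2 and IGHV1OR15-1 on chromosome 15. How many of all 406 windows are orphans or lie near such a stretch is not given here. Neither count thus sets the silent segments apart from the rest. By locus and chromosome, 12 of 98 kappa windows on chromosome 2 were silent, 5 of 18 heavy chain windows on chromosome 15, 3 of 4 kappa windows on chromosome 9, and 1 of 163 heavy chain windows on chromosome 14.

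Chromosome 21 held its silent windows in 4 stretches, which were marked off after their values were seen. The short arm had 95 silent of 148 windows, 64.2%, with medians of 0 in both libraries, yet its highest window reached 14.4 with PAF1. On the long arm, 12 of 73 windows were silent in the stretch around POTED, 6 of 8 in the stretch from SMIM11 to KCNE1, and 19 of 42 in the stretch from PKNOX1 to DNMT3L. None of the other 599 windows of the chromosome was silent, and their medians were 3.61 with PAF1 and 3.8 with PHF5A.

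The long-arm stretches hold genes that the build lists a second time on 21p. Of 9 symbols with a window on each arm, 7 were silent on both. These were CBS, the cystathionine synthase gene mutated in homocystinuria, U2AF1, the lens crystallin gene CRYAA, the T cell costimulatory ligand gene ICOSLG, LINC00313, SNORA11 and MIR8069-1. SMIM11 was silent on 21p and had 1.50 with PAF1 and 2.68 with PHF5A on 21q. SNORA70, a scattered RNA gene, was silent on neither arm, with 3.05 and 3.57 on 21p and 3.58 and 6.15 on 21q. SIK1, a salt-inducible kinase gene, and C21orf140 were silent on 21q, and identical promoters under clone names were silent on 21p.

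Silent windows were the more frequent, the more of the promoter was found in other promoters. Each matched 300-base promoter was cut into overlapping words of 25 bases, and words were looked up on both strands in all other RefSeq promoters at separate places. Among 15996 windows with no shared word, 43 were silent, 0.269%. Among windows with above 0 to 10% of words shared, 9 of 750 were silent, 1.2%. From 10 to 50% it was 8 of 282, 2.84%, and from 50 to 90% it was 21 of 190, 11.1%. From 90 to under 100% it was 25 of 80, 31.2%, and at 100% it was 55 of 102, 53.9%.

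The median signal of all windows in these classes went the same way. With PAF1 it was 3.77, 3.44, 2.83, 1.11, 0.16 and 0 from the lowest to the highest class, and with PHF5A it was 4.08, 3.85, 2.93, 1.18, 0.22 and 0. Away from window-free stretches and chromosome ends the shares of silent windows were 0.2%, 0.607%, 2.25%, 10.2%, 23.2% and 53% in the same order. Of the silent windows with a matched promoter, 101 of 161, 62.7%, shared at least 50% of their words, against 271 of 17239 other windows, 1.57%. The 793 silent windows without a matched promoter are not covered, all 54 on chromosome 8 among them.

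**Figure D4:**
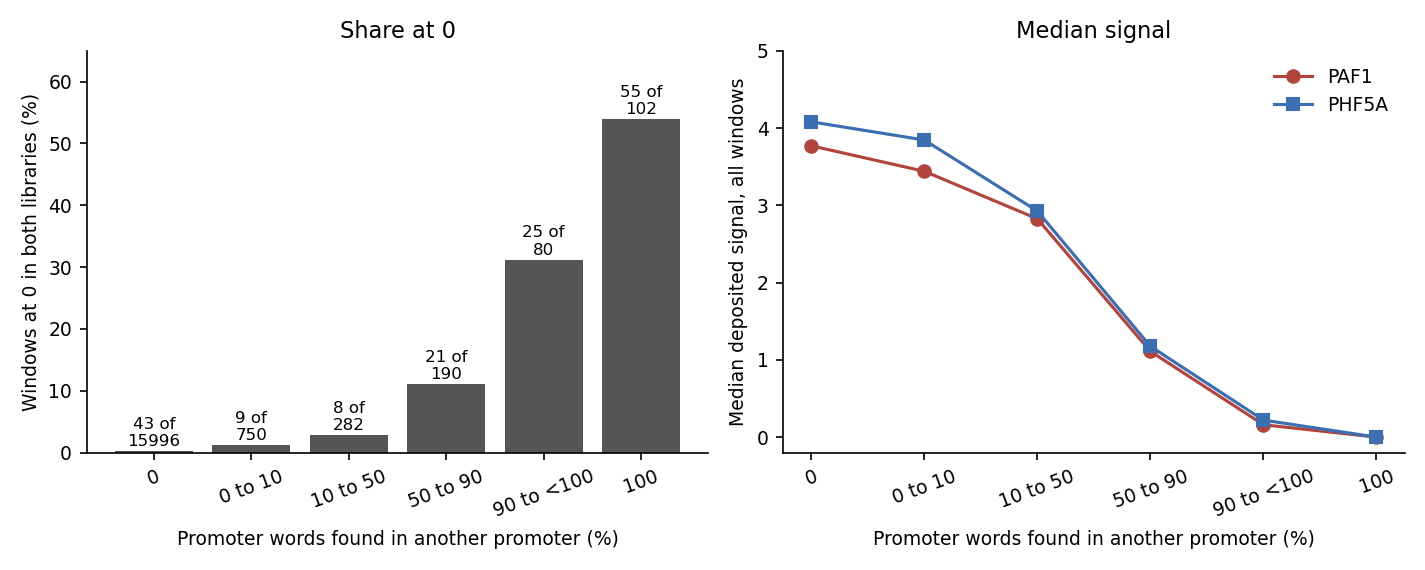
Left, share of windows at 0 in both libraries (percent) by the percentage of 25-base words of the RefSeq promoter found in another promoter, with counts above the bars. Right, median deposited signal of all windows of the same classes with PAF1 (circles) and PHF5A (squares). The share climbs to 53.9% in the highest class, where both medians are 0.

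Identical promoters were a case of their own. The table held 28 sets of promoters identical at 2 or more separate places, 67 places in all. In 10 sets every place was silent, in 10 some were, and in 8 none was. The highest signal at any of the 67 places was 3.4, against a median of 4.22 with PAF1 over all autosomal windows, and in 21 sets no place exceeded 1. Sets that were silent throughout, beside those printed above, were SLX1A and SLX1B, which encode a structure-specific endonuclease, LIMS3 and LIMS3L, SPATA31D3 and SPATA31D4, and 2 of the 3 SPDYE8P windows of chromosome 7 with the clone-named CH17-52D20.2.

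Related genes beside such copies could carry some signal. SMN1, whose loss causes spinal muscular atrophy, was silent, and its copy SMN2 had 0.52 with PAF1 and 0.88 with PHF5A. AMY1A, AMY1B and AMY1C were silent, and the pancreatic amylase genes AMY2A (2.94 and 2.79) and AMY2B (1.83 and 3.52) were not. BOLA2 and BOLA2B were both silent, as was SULT1A3, while its copy SULT1A4 had 0.66 and 0.27. CHRFAM7A, a fusion gene with part of the nicotinic receptor gene CHRNA7, was silent and CHRNA7 had 2.58 and 2.36. In each of these pairs with 1 silent member, the other member was below the median of all windows in both libraries.

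Coding genes were the smaller part of the silent windows. RefSeq gave a biotype for 452 of the 954, 47.4%, and 169 were protein-coding, 17.7% of silent windows against 32.5% of other windows. Among all 18382 protein-coding windows 0.919% were silent, against 81% of 21 ribosomal RNA windows, 10.3% of 116 small nuclear RNA windows and 5.28% of 852 transcribed pseudogenes. Symbols that are clone names made up 450 silent windows, 47.2%, and 21639 other windows, 38.6%.

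Of the 121 single or paired windows outside the listed families for which no copied promoter was found, 22 were protein-coding and 81 had no RefSeq entry. Promoters with under 50% of words shared counted as not copied, among them those of FAM115C, at 42.4%, and DVL1, at 0.725%. A promoter was matched for 14 of the 22, so copies of the other 8 were not measured. Near chromosome ends, 3 more protein-coding genes outside the listed families, ISG15, BTNL3 and NKX6-2, were silent, none of them with a matched promoter. Regions were called ordinary where the surrounding level was at least 0.5 times the median of the library, 2.11 with PAF1 and 2.19 with PHF5A. By that limit 11 of the 22 lay in ordinary regions.

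Several of these 11 have a gene with a closely related name. A promoter was matched for 7 of the 11, of which 6 shared no word with another promoter, and none was matched for RASA4B, CATSPER2, DDTL and GATSL2. The partners were looked up after the values were seen. No promoter was matched to the partner windows of EIF3C, NSF, GPR42 and UBE2L3. Sharing no word thus does not show that these genes have no copy. EIF3C, a subunit of translation factor eIF3, was silent and EIF3CL had 0.16 with PAF1 and 0.16 with PHF5A. NSF, an ATPase of vesicle fusion, was silent and its partial copy NSFP1 had 0.05 and 0.11. RASA4B was silent and RASA4, a Ras regulator, had 1.05 and 1.06. CATSPER2, a sperm calcium channel subunit, was silent and CATSPER2P1 had 2.38 and 2.06. DDTL was silent and DDT, a relative of macrophage migration inhibitory factor, had 1.66 and 0.67.

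Other partners carried ordinary signal. GPR42 was silent in a region with levels of 3.08 and 3.19, and its near-identical neighbour FFAR3, a receptor for short-chain fatty acids, had 5.72 with PAF1 and 3.35 with PHF5A. FAM115C was silent and FAM115A had 5.72 and 5.25. GATSL2, which lies between NCF1 and NCF1C on chromosome 7, was silent and GATSL3 had 2.22 and 3.29. UBE2L3, a ubiquitin-conjugating enzyme gene on chromosome 22, was silent and UBE2L5P had 4.72 and 8.04. The remaining ones of the 11 were CDKN2B and PPIP5K1, an inositol phosphate kinase gene on chromosome 15, 77.9 kb from CATSPER2.

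**Figure D5:**
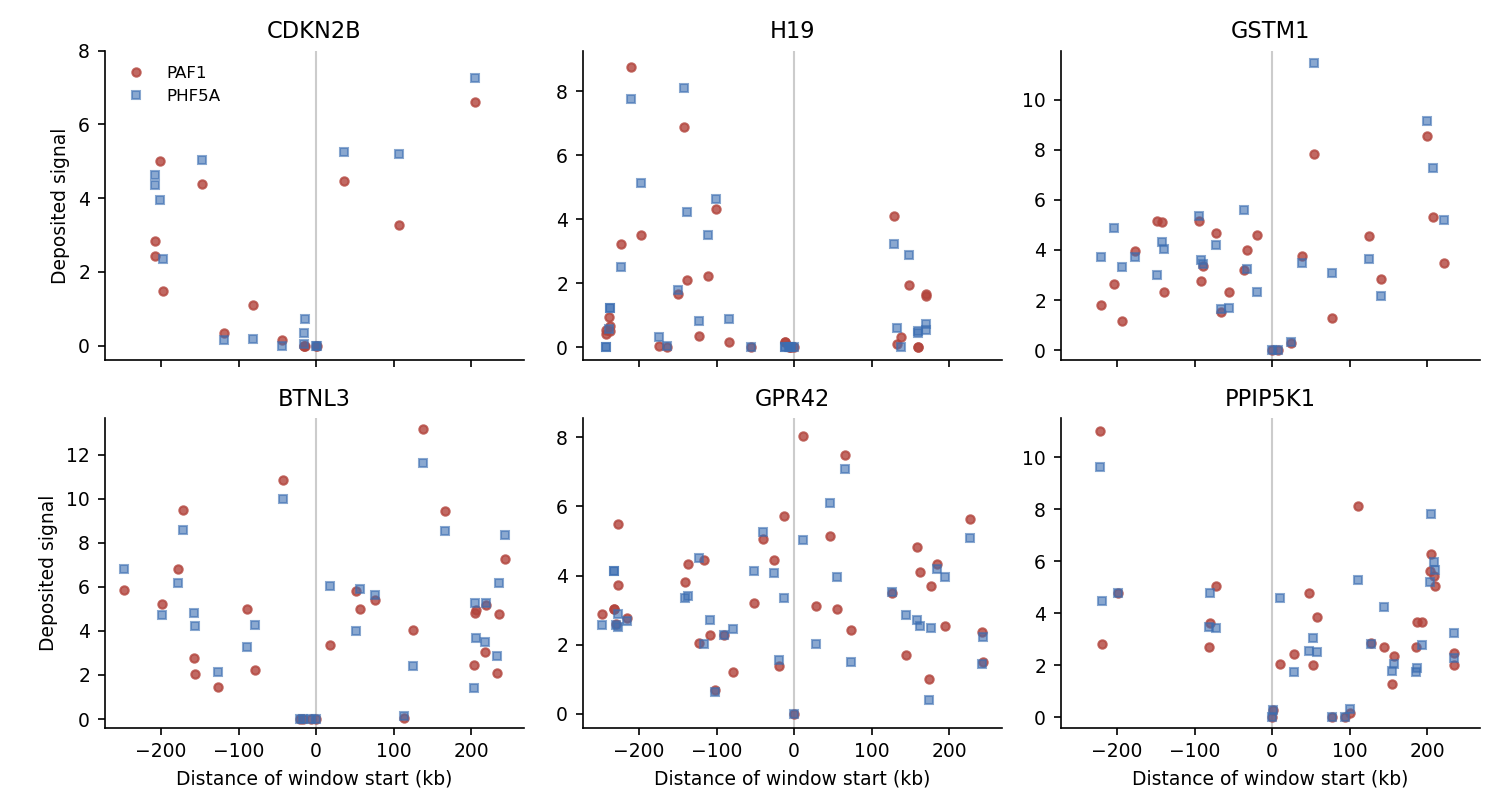
Deposited signal of each promoter window with PAF1 (circles) and PHF5A (squares) against the distance of its start in kb from the start of the named window, within 250 kb. At GPR42 a single window is at 0 between neighbours with signal, while at CDKN2B, H19, GSTM1 and BTNL3 several neighbouring windows are at or near 0.

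CDKN2B lay in a stretch of low signal of which the list of silent windows shows only a part. From the short arm end inwards, MTAP, which salvages methionine and lies 208 kb before CDKN2B, had 2.83 with PAF1 and 4.63 with PHF5A. RP11-70L8.5, at 119 kb, had 0.33 and 0.16, ERVFRD-3 had 1.11 and 0.17, and CDKN2A-AS1 had 0.16 and 0. CDKN2A, the p16 gene that pancreatic cancers often lose, had 0 with PAF1 and 0.71 with PHF5A, and CDKN2B-AS1 had 0 and 0.05. CDKN2B and UBA52P6 had 0 and 0, and CDKN2B-AS_3, 35.9 kb beyond, had 4.47 and 5.26. The 6 windows from CDKN2A-AS1 through UBA52P6 span 47.7 kb and none passed 0.16 with PAF1 or 0.71 with PHF5A. The copy number of the locus in these cells was not tested.

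GSTM1 and BTNL3 are textbook sites of common human deletions, and each was silent together with neighbours. GSTM1, a glutathione transferase, and AC000032.2 were at 0, GSTM5 had 0.27 with PAF1 and 0.33 with PHF5A, and on the other side GSTM2 had 4.61 and 2.34 and GSTM4 had 4 and 3.25. GSTM3, 54.7 kb away, had 7.83 and 11.4. BTNL3, a butyrophilin-like gene near the end of 5q, formed a run with 3 clone-named windows, and BTNL8, its neighbour with which it can fuse, had 5 and 3.29. The windows flanking that run, RPS29P12 and RNU6-1036P, had 10.9 and 3.38 with PAF1 and 10.0 and 6.03 with PHF5A. Of the UGT2B list, glucuronosyltransferases of which some are also commonly deleted, 0 of 8 windows were at 0 and the lowest value was 1.11. Copy number at these sites was not tested.

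H19 was silent with all its listed parts. The 4 windows H19_1, H19_2, MIR675 and H19 cover 8.93 kb (chr11:1994540-2003470), and MRPL23, a mitochondrial ribosomal protein gene 55.7 kb before H19, was silent too. MRPL23-AS1, between them, had 0.16 with PAF1 and 0 with PHF5A. The imprinted partner IGF2, a growth factor gene, had 1.94 and 2.90, INS had 0 and 0.44, and MIR483 had 0.11 and 0.61. Within 250 kb of H19, the 27 windows that were not silent had medians of 0.66 and 0.82, so H19 lay in a region of low signal. Its own promoter shared no word with another RefSeq promoter.

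The other 11 of the 22 coding genes lay in regions below the ordinary limit. DVL1, a transducer of Wnt signals, and VWA1, a matrix protein gene, lay near the beginning of chromosome 1, with surrounding levels of 0.94 and 0.97 with PAF1 and 1.03 and 1.23 with PHF5A. C9orf172, ENTPD2, an ectonucleotidase, RNF208, a ubiquitin ligase gene, and SLC34A3, a kidney phosphate transporter, lay near the end of 9q, where the surrounding levels were 1.06 to 1.22 with PAF1. RNF208 was silent beside TMEM203 at 4.77 with PAF1 and 6.09 with PHF5A. NAT8L, which makes N-acetylaspartate in neurons, MRPL23, PRR23D2, CACNA2D3 and a second window named SEC22B completed the set. CACNA2D3, with surrounding levels of 2.28 and 2.15, missed the ordinary limit with PHF5A alone. The first SEC22B window, on the other side of the centromere of chromosome 1, had 4.50 and 3.46.

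Silent windows had promoters of similar GC content and with fewer CG pairs. The GC content of the RefSeq promoter had a median of 60% in 161 silent windows and 61.7% in 17239 other windows. Among promoters without a shared word it was 64% in 43 silent and 61.7% in 15953 other windows. The median number of CG pairs in the 300 bases was 13 in silent and 20 in other matched promoters, and 15 and 20 among those without a shared word. Among promoters with at least 50% of words shared it went the other way, with 11 in 101 silent and 8 in 271 other windows. Their median GC content was 58.3% and 56.7%. The GC classes that follow are of the promoters without a shared word. By GC content, 0.494% of these windows were silent under 40%, 0.166% from 40 to 50%, 0.191% from 50 to 60%, 0.275% from 60 to 70% and 0.332% above 70%. Over the same classes the median PAF1 signal was 5.11, 5.29, 4.27, 3.38 and 2.66. The 5 promoters with at least 79% GC among the 22 coding genes, those of DVL1, CACNA2D3, NAT8L, ENTPD2 and RNF208, all lay in regions below the ordinary limit.

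Of 36 autosomal genes that bear on the study's question, 2 were silent, CDKN2B and U2AF1. With 1.67% of all windows silent, and 0.919% of protein-coding ones, a list of this size says little about its members. The PAF1 window had 3.33 with PAF1 and 2.51 with PHF5A. The PHF5A window had 4.16 and 4.97. The stem cell surface genes of the list went both ways. CD44 (11.6 and 11.2), PROM1 (7.5 and 7.04) and EPCAM (6.7 and 6.5) were above the medians of all windows. CD24 (2.38 and 1.73), CXCR4 (3.23 and 3.43) and ABCG2 (3.16 and 1.67) were below them.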

How the data were processed

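Per the labels' protocols, chromatin of SW1990 SP cells was immunoprecipitated for PAF1 or PHF5A, with 1 library each, after fixation with formaldehyde (0.4%) and also EGS (1.5 mM). The deposited values are signal, a mean per promoter window from 2000 bp before to 500 bp after a start site, in 1 table made by the authors. Per the submitters' processing notes, the build was hg38 (GRCh38) and the tools included bedtools, deepTools, Picard, Bowtie2 2.2.3 and Trim Galore. Their order and settings, the scale of the signal and the treatment of reads with several matches were not given in the sources used here. Input, the library without an antibody, was not analysed here.

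Windows at 0 in both libraries on chromosomes 1 to 22 were selected, and everything else was computed with Python 3.11.15, pandas 2.3.3 and numpy 2.4.6, with figures in matplotlib 3.10.9. PAF1 values were whole bin sums over bins of 150 bp within a tolerance of 0.0051. PHF5A values were turned into bin sums after division by 1.00608, and how closely they fit is not given here. The sums over autosomal windows were 4666548 for PAF1 and 4742164 for PHF5A. The floor of a listed 0 was fixed at an expected 3 fragments and was not computed from these sums. Floors cover counting error only. Windows were set beside RefSeq entries of GRCh38.p14 by symbol, older symbol or position, and promoters were compared by 25-base words on both strands. A promoter matched by position can belong to another gene, as LOC107985729 does for the VWA1 window. The word search and the run count were tested on simulated data.

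With 1 library for each antibody and a choice made on the signal itself, no test was run and no p-value is given. Named genes include those of the longest runs, the families with 5 or more silent windows, the coding genes with no copied promoter found and the study's own genes. Others were picked outside these rules. Among them are H19, GSTM1, the UGT2B list, the amylase genes, the SMN region, U1 RNA and the families named without a silent window. Partner genes were added after their values were seen. The members, families and regions were chosen with earlier results of these data known. Alternatives covered the limit for silence, merged windows, distances, run length, word share, family names and regional level.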

Additional observations from a re-analysis of the deposited data

How the results depend on the processing

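Of 24 alternatives, 15 left a count within 1.5 times its value and 9 did not. Silent windows numbered 1900 with both signals at most 0.5, 1515 with a 0 in at least 1 library, and 1701 with chromosomes X and Y added, against 954. Windows near a window-free stretch numbered 170 within 2 Mb, against 380 within 5 Mb. Runs of 5 or more held 392 windows, against 618 in runs of 3 or more. A copy defined by a shared symbol or symbol root gave 488, against 101 by sequence. By that definition 51.2% of silent and 53.1% of other windows had a copy. Listed families without pseudogene or clone names gave 208, against 321. Of the coding windows with no copied promoter found, 11 of 22 lay in ordinary regions. They numbered 6 where ordinary meant at least 0.75 times the library median and 18 at 0.25 times. These limits were widened or narrowed by construction, which changes how many windows can count. Chosen after seeing the data, leaving out chromosome 21 gave 822 silent windows, 285 of them near a window-free stretch and 79 with a copied promoter.

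A listed 0 was taken to allow an expected signal of up to 0.529, so a weakly bound window cannot be told apart from an unbound one. Repeated sequence and absence of binding cannot be told apart from these 2 values either. Word shares cover 16.9% of silent windows and only 300 bases of each. No paired analysis was possible because each antibody had 1 library and no test was run.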

Other observations

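Windows on the short arm of chromosome 21 outside the silent set were not all low. Its highest window had 14.4 with PAF1, and the highest with PHF5A had 10.0, against medians of 0 in both libraries over its 148 windows. Among families without a silent window, the 6 KANSL1 and ARL17 windows had medians of 0.59 with PAF1 and 1.29 with PHF5A and the 20 NUTM2 and AGAP windows had 1.94 and 1.48. Copies of mitochondrial genes stood at the other end, with medians of 6.97 and 7.01 over 170 windows.

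Promoters identical at several places without a silent window included POTEG and POTEM, at or below 0.61, NUTM2A and NUTM2B, at or below 0.77, CTAGE4, CTAGE6 and CTAGE8, at or below 0.82, and CLEC18A and CLEC18B, at or below 0.88. PRR20 genes on chromosome 13, which share 1 promoter sequence at 4 places, were silent at 2 and reached 1.82 at another.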
